A study of Mus musculus with 12 samples.

Results

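Kruppel-like factors are transcription factors that bind GC-rich and CACCC boxes through C2H2 zinc fingers at the carboxyl end. They differ in the rest of the protein. *Klf3* and *Klf12* encode repressors that recruit CtBP, *Klf2*, *Klf4* and *Klf6* encode factors that are mostly activators, *Klf9*, *Klf10*, *Klf11* and *Klf13* encode factors that recruit the SIN3A corepressor, and *Klf15* encodes a regulator of amino acid breakdown and gluconeogenesis in the liver. Several of these genes respond quickly to outside signals, such as glucocorticoids for *Klf9*, TGF-beta for *Klf10* and *Klf11*, and shear stress for *Klf2* and *Klf4* in the endothelium.

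The mRNA of 10 of these genes was followed over the day in mouse liver. The genes were chosen by symbol (*Klf2*, *Klf3*, *Klf4*, *Klf6*, *Klf9*, *Klf10*, *Klf11*, *Klf12*, *Klf13* and *Klf15*) out of 20069 genes with a signal. Livers came from adult male C57BL/6 mice of 3 to 6 months, kept for at least 2 weeks in 12 hr of light and 12 hr of dark, and ZT0 is the time of lights on. Sampling ran every 4 hr from ZT2 to ZT22, in 2 series, so that each time point has 2 samples and there are 12 samples in all. No mouse was treated or mutated, and time of day is the one difference between the groups. The labels do not give the number of mice behind each sample, and p-values measure the spread between these samples, which may be in part technical.

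The signal of a gene is the mean number of reads over each base pair of its exons (rpbp), set to 40000000 uniquely mapped sequences per sample, so that levels can be compared between genes of different length. It is no count of reads, and the number of mapped sequences per sample, which the study states, was not used here, so that no interval for counting error is given. The summed signal of all genes was between 1487469 and 1546116 rpbp per sample. Samples of the same time point had a Pearson r of 0.975 to 0.987 across genes (median 0.979), and the highest r between samples of different time points, 0.981, lay within this range. The hepatocyte marker *Alb*, which encodes albumin, was between 50445 and 122523 rpbp, the endothelial marker *Eng* between 57.4 and 66.1 rpbp, and the Kupffer cell marker *Clec4f* between 104 and 199 rpbp. The T cell marker *Cd3e* stayed at or below 1.48 rpbp. In whole liver, a change in the number of cells of a type and a change of mRNA per cell cannot be told apart.

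Of the 10 genes, 9 had at least 1 value above 8 rpbp, the minimum for an expressed gene, and *Klf4* did not. A gene was called rhythmic when the 24 hr component took more than 0.45 of the variance of its 12 values (F24), the highest value was more than 1.5 times the lowest (amplitude), and the permutation p of F24 was below 0.05. *Klf12*, *Klf13* and *Klf15* were rhythmic, 3 of the 9 genes, against 1948 of 10198 expressed genes (19.1%). *Klf12* and *Klf13* were also strongly rhythmic (an F24 above 0.6 and a stricter limit on the amplitude), against 7.89% of expressed genes. After Benjamini-Hochberg adjustment over all expressed genes, the permutation p stayed below 0.05 for the same 2 genes, against 4.81% of expressed genes. A change over the day need not follow a 24 hr wave, and a limma F-test of the 6 time points on log2(rpbp + 1) was used to find any difference between them. It called *Klf9*, *Klf10*, *Klf12*, *Klf13* and *Klf15* (adjusted p below 0.05), 5 of the 9 genes, against 1792 expressed genes (17.6%). The median F24 of the 9 genes was 0.296, and that of all expressed genes was 0.310.

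**Figure D1:**
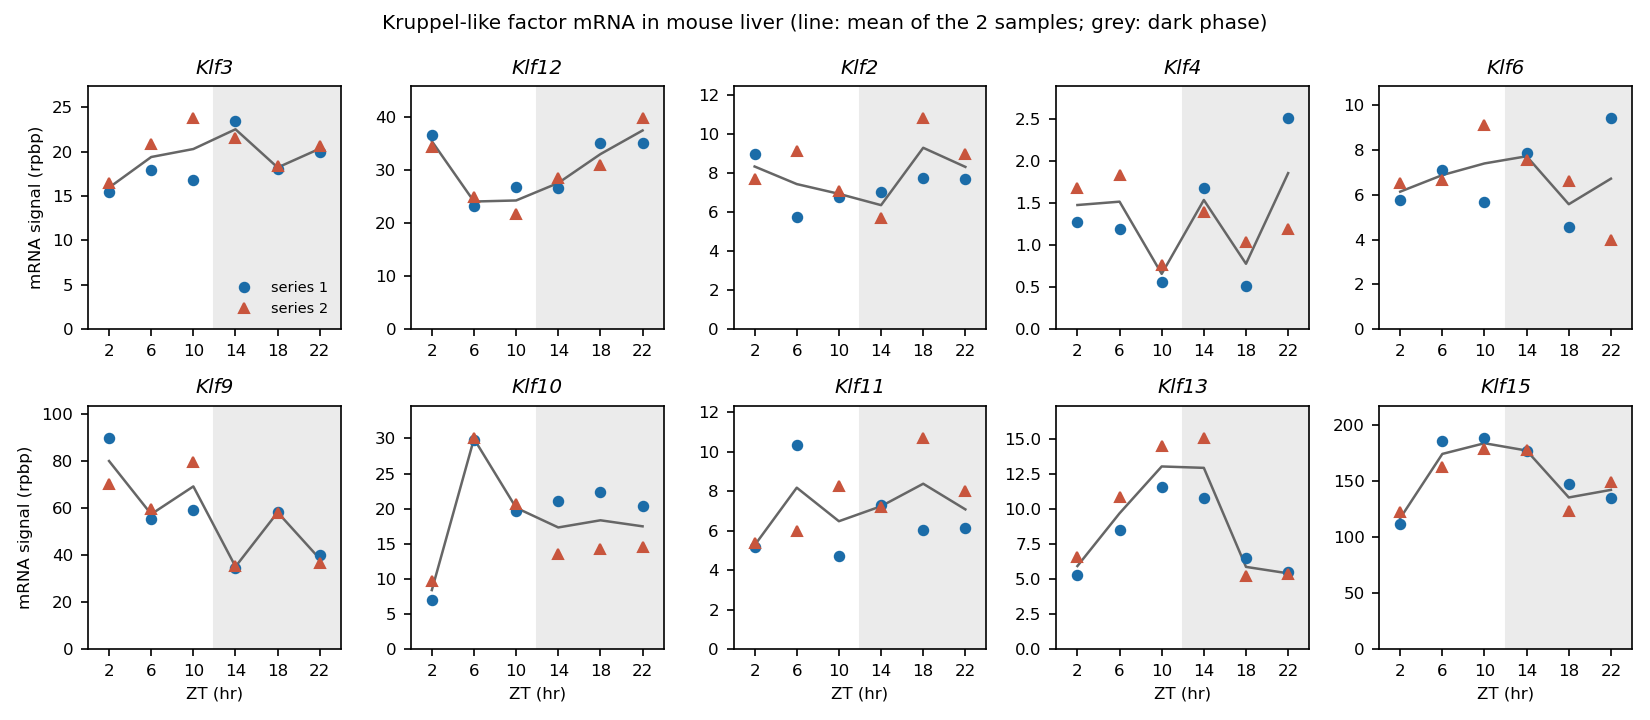
mRNA signal in rpbp (vertical axes, each from 0) against ZT in hr for the 10 genes, with circles for series 1, triangles for series 2, a line through the mean of the 2 samples and the dark phase in grey. *Klf13* and *Klf15* are higher, and *Klf12* lower, in all samples from ZT6 to ZT14 than in the others, *Klf9* goes down and up between neighbouring time points, and *Klf10* rises from 8.40 rpbp at ZT2 to 29.9 rpbp at ZT6.

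The genes differed widely in level. *Klf15* was the highest with 155 ± 27.3 rpbp (SD, n = 12), followed by *Klf9* with 56.4 ± 17.7, *Klf12* with 30.3 ± 5.84, *Klf3* with 19.4 ± 2.71 and *Klf10* with 18.6 ± 7.13 rpbp. *Klf13* had a mean of 8.80 ± 3.64, *Klf2* of 7.78 ± 1.49, *Klf11* of 7.10 ± 1.94, *Klf6* of 6.74 ± 1.64 and *Klf4* of 1.31 ± 0.573 rpbp. Of all neighbours in this order, *Klf15* and *Klf9*, and *Klf6* and *Klf4*, had ranges over the 12 samples that did not overlap. *Klf9* was above *Klf12*, and *Klf12* above *Klf3*, in 11 of 12 samples. *Klf3* was above *Klf10* in 7 samples, among them both samples of ZT2 and of ZT14 and neither sample of ZT6. *Klf13* was above *Klf2* in 6 samples, those from ZT6 to ZT14, and below it in all samples of ZT18, ZT22 and ZT2. The order of these neighbours thus changed with the time of day. *Klf2*, *Klf11* and *Klf6* likewise change places between samples, *Klf2* being above *Klf11* in 8 and *Klf11* above *Klf6* in 4 of 12. *Klf15* alone held 38.8% to 56.7% of the summed signal of the 10 genes.

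**Figure D2:**
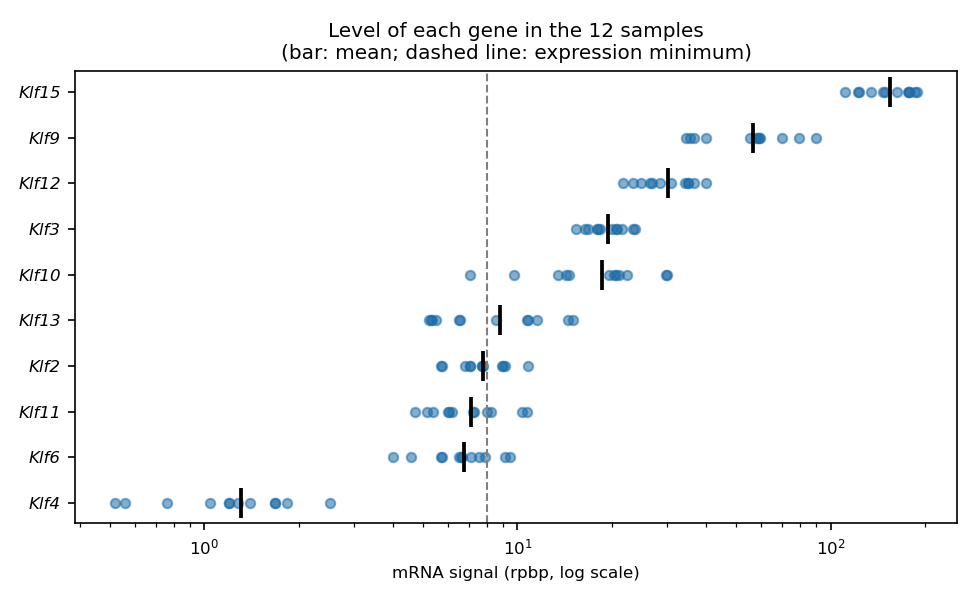
mRNA signal of each gene in the 12 samples (points, rpbp on a log axis), with the mean as a bar and the minimum of 8 rpbp as a dashed line. *Klf15* lies above 111 rpbp in every sample, and *Klf4* at or below 2.52 rpbp.

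*Klf15*, on chromosome 6 (chr6:90412570-90425232, plus strand, mm9), was high from ZT6 to ZT14, that is from the middle of the light phase to the start of the dark phase. In series 1 its signal was 111 rpbp at ZT2, 186 at ZT6, 189 at ZT10, 177 at ZT14, 147 at ZT18 and 135 at ZT22. In series 2 it was 122, 163, 179, 178, 123 and 149.5 rpbp at the same times. All 6 samples from ZT6 to ZT14 were above all 6 samples of the other time points, and the samples of ZT2 were the lowest in both series. The mean at ZT10 (184 ± 7.16 rpbp, SD, n = 2) was 1.57 times that at ZT2 (117 ± 7.58 rpbp), and the ratio was 1.69 in series 1 and 1.46 in series 2. F24 was 0.708 with a permutation p of 0.0085 and an adjusted p of 0.0802, and the amplitude was 1.69. The phase, the peak time of the 24 hr component, was 10.8 hr. It was 10.8 hr in series 1 and 10.7 hr in series 2. The limma test between time points gave an adjusted p of 0.0246, which rose above 0.05 (to between 0.0510 and 0.0953) without either sample of ZT2, either sample of ZT14 or the series 1 sample of ZT6.

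The CACGTG hexamer is the E-box to which CLK:BMAL1, the activator of the circadian clock, binds. The RefSeq promoter of *Klf15* (250 bases before to 50 after its start) holds 3 copies, beginning at -228, -172 and -3 from the start. It is shown because of the 32851 promoter windows of this length, 7.15% hold at least 1 copy and 29 windows (0.0883%) hold 3 or more. The hexamer reads alike on both strands. The plus strand from the first base of the window to the end of the third copy, at chr6:90412320-90412572 (mm9), with the hexamers in capitals, is as follows.
Klf15 promoter: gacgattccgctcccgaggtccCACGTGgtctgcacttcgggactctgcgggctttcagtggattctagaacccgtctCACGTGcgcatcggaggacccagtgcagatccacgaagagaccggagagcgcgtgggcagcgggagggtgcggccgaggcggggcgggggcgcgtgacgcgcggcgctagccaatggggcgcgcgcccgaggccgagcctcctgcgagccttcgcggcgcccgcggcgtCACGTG

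Of the 9 genes with a RefSeq promoter window, 4 held the hexamer, namely *Klf15*, *Klf4*, *Klf6* and *Klf11*, and of these *Klf15* was rhythmic. The single copies of the other 3 lie at -182 in *Klf4* (chr4:55545514-55545539, minus strand), at -43 in *Klf6* (chr13:5860682-5860707, plus strand) and at -214 in *Klf11* (chr12:25336012-25336037, plus strand). They are printed with 10 bases on each side, to be compared with the copies of *Klf15*.
Klf4: cccccgccccCACGTGcgcggagttt
Klf6: ccaagctggtCACGTGgggggagaag
Klf11: cggaccaaaaCACGTGccgccgcccg
Klf15 at -228: cccgaggtccCACGTGgtctgcactt
Klf15 at -172: gaacccgtctCACGTGcgcatcggag
Klf15 at -3: cccgcggcgtCACGTGagcggccgga
The windows of *Klf12* and *Klf13*, the other two rhythmic genes, do not hold these letters. A match of letters is a description of the sequence and not of binding.

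*Klf13* (chr7:71031237-71083801, minus strand) encodes a factor that binds GC boxes and is known for its role in lymphocytes and the heart. It peaked at the same time as *Klf15* at a far lower level. Its signal in series 1 was 5.28 rpbp at ZT2, 8.52 at ZT6, 11.6 at ZT10, 10.8 at ZT14, 6.52 at ZT18 and 5.48 at ZT22. In series 2 it was 6.56, 10.8, 14.5, 15.1, 5.20 and 5.32 rpbp. The 6 samples from ZT6 to ZT14 lay between 8.52 and 15.1 rpbp, and the other 6 samples between 5.20 and 6.56 rpbp, without overlap. The mean rose to 13.0 ± 2.06 rpbp (SD, n = 2) at ZT10, 2.41 times the 5.40 ± 0.113 rpbp at ZT22, and the ratio was 2.11 in series 1 and 2.72 in series 2. F24 was 0.809 (permutation p = 0.0013, adjusted p = 0.0346), the amplitude was 2.90 and the phase was 10.8 hr, with 11.1 hr in series 1 and 10.6 hr in series 2. The limma adjusted p was 0.0105, and it stayed between 0.0121 and 0.0323 when each of the 12 samples was left out in turn.

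The window of *Klf13* holds 3 copies of the GC box, the GGGCGG hexamer (CCGCCC on the other strand) to which Sp and Kruppel-like factors themselves bind, at -131, -27 and -6. Genes that were not called rhythmic held more, with 6 copies in *Klf3* and 4 in *Klf11* and in *Klf4*. The hexamer is common, since 35.7% of all windows hold at least 1 copy and 10.7% hold 3 or more, and 7 of the 9 Kruppel-like factor windows hold it. The CACCC box was found in 6 of the 9 windows and in 57.5% of all windows, and in *Klf13* its 1 copy, at -22, overlaps the GC box at -27 by 1 base. The 250 bases before the start of *Klf13* (chr7:71083802-71084051, mm9, read on the minus strand) are given with the GC boxes in capitals, to show these boxes in a rhythmic gene without the E-box hexamer.
Klf13 promoter: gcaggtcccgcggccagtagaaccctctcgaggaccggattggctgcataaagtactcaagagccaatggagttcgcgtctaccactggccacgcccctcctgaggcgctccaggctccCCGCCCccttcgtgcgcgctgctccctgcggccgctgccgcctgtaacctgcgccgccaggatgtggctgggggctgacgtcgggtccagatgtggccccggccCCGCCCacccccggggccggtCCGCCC
Another 3 motifs were searched on both strands and found in 0 of the 9 windows, namely TGACGTCA (1.79% of all windows), TTATGTAA (0.938%) and AGGTCA (16.3%).

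*Klf12* (chr14:100269869-100549015, minus strand), which encodes a repressor of *AP-2alpha*, took the opposite course. In series 1 its signal was 36.6 rpbp at ZT2, 23.3 at ZT6, 26.9 at ZT10, 26.6 at ZT14, 35.1 at ZT18 and 35.1 at ZT22. In series 2 it was 34.3, 24.8, 21.7, 28.6, 30.9 and 39.9 rpbp. The 6 samples of ZT18, ZT22 and ZT2 were all above the 6 samples from ZT6 to ZT14. The mean at ZT22 (37.5 ± 3.39 rpbp, SD, n = 2) was 1.56 times that at ZT6 (24.1 ± 1.07 rpbp), with ratios of 1.504 in series 1 and 1.61 in series 2. F24 was 0.831 (permutation p = 0.0008, adjusted p = 0.0280), the amplitude was 1.84 and the phase was 21.8 hr, with 21.7 hr in series 1 and 21.95 hr in series 2. The limma adjusted p was 0.0273. It rose above 0.05 (to between 0.0542 and 0.0784) without any 1 of the 4 samples of ZT2 and ZT6 or the series 2 sample of ZT22.

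The 3 rhythmic genes thus had phases at opposite times of the day. The phase of *Klf12* was 11.04 hr away from that of *Klf13* and 11.07 hr away from that of *Klf15*, and these distances were 10.6 and 10.9 hr in series 1 and 11.4 and 11.3 hr in series 2. The phases of *Klf13* and *Klf15* were 0.0255 hr apart, and 0.313 and 0.112 hr apart in the series taken alone, with samples 4 hr apart. Both times are common in this liver. Of the 1948 rhythmic genes, 290 (14.9%) had a phase from 10 to 12 hr, the fullest of the 2 hr bins, and 196 (10.1%) had a phase from 20 to 22 hr. Across the 12 samples, log2 signals had a Pearson r of 0.82 between *Klf13* and *Klf15*, of -0.80 between *Klf12* and *Klf13* and of -0.74 between *Klf12* and *Klf15*. These values are descriptions, since the samples share the time points.

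**Figure D3:**
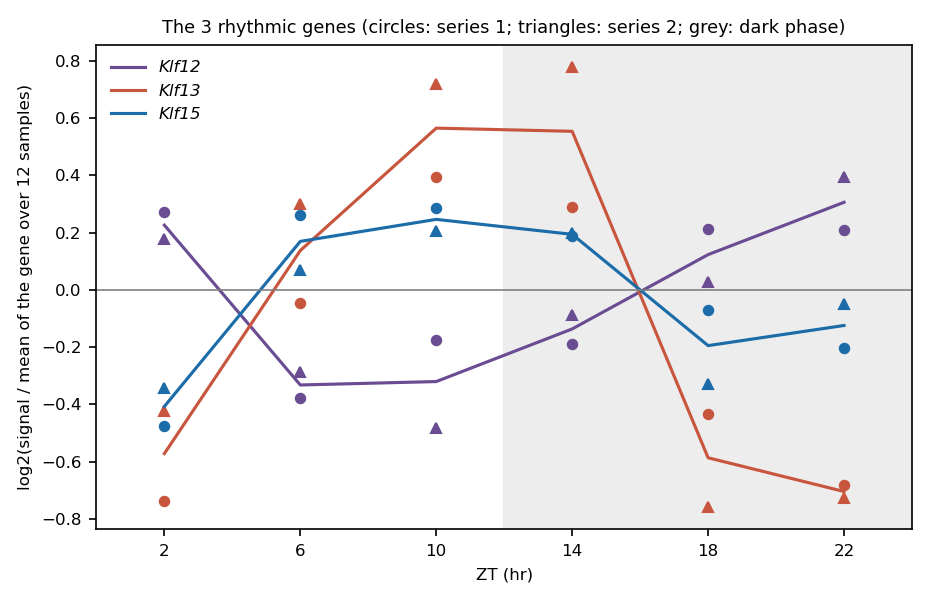
log2 of the signal over the mean of the gene in the 12 samples (vertical axis) against ZT in hr for *Klf12*, *Klf13* and *Klf15*, with circles for series 1, triangles for series 2 and lines through the means of the 2 samples. *Klf13* and *Klf15* are high from ZT6 to ZT14, when *Klf12* is low, and their phases lie 11.04 and 11.07 hr from that of *Klf12*.

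Among 8936 genes compared, those with the courses most like *Klf12* were *Rfxank* (r = 0.94 over the 12 samples), which encodes a part of the RFX complex of MHC class II promoters, and *Traf2* (r = 0.94), an adaptor of TNF receptors. *Rfxank* had a phase of 20.9 hr and *Traf2* of 21.0 hr. Most like *Klf13* were *Enpp2* (r = 0.93), which encodes the secreted enzyme autotaxin, and *Map3k5* (r = 0.93), a stress-activated kinase, with phases of 10.9 and 11.1 hr. Most like *Klf15* were *Map2k6* (r = 0.95), a kinase of the p38 pathway, and *Srebf1* (r = 0.94), the transcription factor of fatty acid synthesis. The mean of *Srebf1* was 118 rpbp at ZT2 and 374 rpbp at ZT6. Its F24 of 0.4496 (permutation p = 0.075) did not pass. *Map2k6*, whose F24 was 0.722 (permutation p = 0.0045, adjusted p = 0.0613), had its lowest mean of 3.14 rpbp at ZT2 and its highest of 14.3 rpbp at ZT10.

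*Klf9* (chr19:23215716-23241401, plus strand), a glucocorticoid-induced gene, changed over the day but did not pass the F24 criterion. Its signal in series 1 was 90.0 rpbp at ZT2, 55.3 at ZT6, 59.0 at ZT10, 34.6 at ZT14, 58.5 at ZT18 and 40.1 at ZT22. In series 2 it was 70.0, 59.5, 79.4, 35.5, 57.9 and 36.6 rpbp. The 4 samples of ZT14 and ZT22 lay below all 8 other samples, and the 2 samples of ZT18, between these times, were close to those of ZT6. The mean at ZT2 (80.0 ± 14.1 rpbp, SD, n = 2) was 2.28 times that at ZT14 (35.1 ± 0.622 rpbp), with ratios of 2.60 in series 1 and 1.97 in series 2. The limma test gave an adjusted p of 0.00847, which stayed between 0.00627 and 0.0277 when each sample was left out in turn. F24 was 0.296 (permutation p = 0.205), so that *Klf9* was not called rhythmic although its amplitude was 2.60.

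The variance of the 12 values was divided into the parts taken by waves of 24, 12 and 8 hr and by the difference between the 2 samples of a time point. The 8 hr wave is the shortest that samples 4 hr apart can show, and it stands for values that alternate from one time point to the next. In *Klf9* this alternation took 56.9% of the variance and the 24 hr wave 29.6%. The median 8 hr share of expressed genes was 3.92%, and the share of *Klf9* was at the 99.5 percentile of them. In *Klf12*, *Klf13* and *Klf15* the 24 hr wave took 83.1%, 80.9% and 70.8%, at the 98.0, 97.4 and 93.2 percentiles. The difference between samples of a time point took 9.45% to 14.8% of the variance in *Klf9*, *Klf10*, *Klf12*, *Klf13* and *Klf15*, and a median of 31.2% in expressed genes. The limma test calls genes in which this part is small, so that the low shares of these genes follow from their being called. The 24 hr share is F24, whose permutation p is given with each gene, and the 12 and 8 hr shares were not tested.

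**Figure D4:**
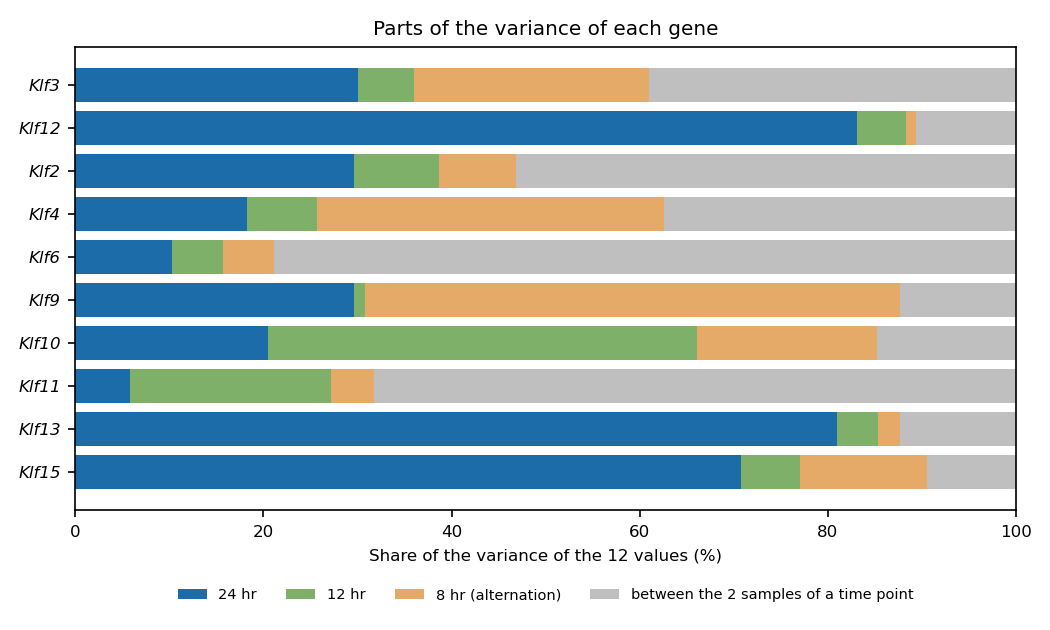
Share of the variance of the 12 values of each gene (horizontal axis, %) taken by the 24 hr, 12 hr and 8 hr components and by the difference between the 2 samples of a time point. The 24 hr part is the largest in *Klf12*, *Klf13* and *Klf15*, the 8 hr part in *Klf9* (56.9%), the 12 hr part in *Klf10* (45.6%), and the part between samples in *Klf6* (78.8%), *Klf11* (68.3%), *Klf2* (53.1%), *Klf3* (39.0%) and *Klf4* (37.4%).

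*Klf10* (chr15:38221219-38230464, minus strand), a TGF-beta inducible early gene, had the largest fold change between time points among the 9 expressed genes. Its signal in series 1 was 7.04 rpbp at ZT2, 29.8 at ZT6, 19.6 at ZT10, 21.1 at ZT14, 22.4 at ZT18 and 20.4 at ZT22. In series 2 it was 9.76, 30.1, 20.6, 13.5, 14.3 and 14.6 rpbp. Both samples of ZT2 were below all others and both samples of ZT6 above all others, while from ZT14 to ZT22 series 1 was higher than series 2 at each time. The mean at ZT6 (29.9 ± 0.255 rpbp, SD, n = 2) was 3.56 times that at ZT2 (8.40 ± 1.92 rpbp), with ratios of 4.23 and 3.09 in series 1 and series 2. The limma adjusted p was 0.0277, and it rose above 0.05 (to between 0.0682 and 0.126) without any 1 of the 4 samples of ZT2 and ZT6. F24 was 0.205 (permutation p = 0.352), and the 12 hr component took 45.6% of the variance.

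The low values of *Klf10* and *Klf15* and the high values of *Klf9* at ZT2 stood beside other differences of the ZT2 samples. The 4 hepatocyte markers did not move together. *Alb* was 50445 and 53126 rpbp at ZT2 and between 93174 and 122523 rpbp at the other times, and *Ttr* (transthyretin) was 9533 and 9369 rpbp at ZT2 and between 11885 and 14781 rpbp at the other times. *Apoa1*, which encodes an apolipoprotein of HDL, was highest at ZT2, with 17423 and 17762 rpbp against 7866 to 15191 rpbp at the other times. *Cyp2e1*, a cytochrome P450, was 8075 and 8042 rpbp at ZT2, within its range of 7506 to 15454 rpbp at the other times. Of the 4, *Alb* (F24 0.555, permutation p = 0.0074, phase 13.9 hr) and *Cyp2e1* (F24 0.749, permutation p = 0.0033, phase 11.5 hr) were rhythmic, and limma called *Alb*, *Ttr* and *Cyp2e1* (adjusted p = 0.00249, 0.0333 and 0.0299). The summed signal of 6 Kupffer cell markers (*Clec4f*, *Emr1*, *Cd68*, *Csf1r*, *Vsig4* and *Marco*) was 362 and 364 rpbp at ZT2 and between 203 and 289 rpbp at the other times, and 0 of the 5 expressed ones were rhythmic by F24 or called by limma. Their part in the result was not tested. With size factors in place of the authors' scaling, all 5 limma calls stood, with adjusted p-values of 0.00728 for *Klf9*, 0.0232 for *Klf10* and 0.0298 for *Klf15*.

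*Klf9* was not among the genes for which a most similar course was to be named, and the next values were looked up after its own were seen. The course most like *Klf9* was that of the zinc finger gene *Zfp655* (r = 0.91), which was 35.1 ± 3.82 rpbp at ZT2 and 20.0 ± 3.05 rpbp at ZT14 (SD, n = 2; limma adjusted p = 0.0701).

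The other 4 expressed genes passed neither test. *Klf3* (chr5:65194628-65221368, plus strand), a repressor that binds CtBP, ranged from 15.4 to 23.8 rpbp with a median of 19.2. Its mean was lowest at ZT2 (15.9 ± 0.707 rpbp, SD, n = 2) and highest at ZT14 (22.5 ± 1.39 rpbp), where both samples were above both samples of ZT2. F24 was 0.300 (permutation p = 0.202) and the limma adjusted p was 0.263.

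*Klf2* (chr8:74842932-74845555, plus strand) ranged from 5.68 to 10.8 rpbp around a median of 7.68, with an F24 of 0.296 (permutation p = 0.209) and a limma adjusted p of 0.438. The 7 endothelial markers *Pecam1*, *Cdh5*, *Kdr*, *Stab2*, *Lyve1*, *Tek* and *Eng* summed to between 147 and 174 rpbp in every sample. None of the 7 was rhythmic by F24 (0 of 7 by permutation p, lowest 0.141) or called by limma (lowest adjusted p 0.0579, for *Kdr*). *Klf4* (chr4:55540013-55545347, minus strand), the second gene known from the endothelium, was between 0.520 and 2.52 rpbp. It was tested only without the minimum, with an F24 of 0.182 (permutation p = 0.413) and a limma adjusted p of 0.233.

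*Klf6* (chr13:5860735-5869639, plus strand), a gene of the injury response, and *Klf11* (chr12:25336236-25347639, plus strand), a TGF-beta inducible gene, differed most between the series. *Klf6* was 9.44 rpbp in series 1 and 4.00 rpbp in series 2 at ZT22, its highest and its lowest value. The part of its variance between samples of a time point was 78.8%, at the 97.5 percentile of expressed genes, and its F24 was 0.103 (permutation p = 0.596). In series 2 alone F24 was 0.785 with an exact permutation p of 0.0167, the smallest that 720 orders of 6 values can give, with a phase of 10.6 hr. In series 1 alone F24 was 0.0463 (exact permutation p = 0.917). *Klf11* ranged from 4.72 to 10.7 rpbp, with 68.3% of its variance between samples of a time point and an F24 of 0.0585 (permutation p = 0.749). The limma adjusted p was 0.833 for *Klf6* and 0.646 for *Klf11*.

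**Figure D5:**
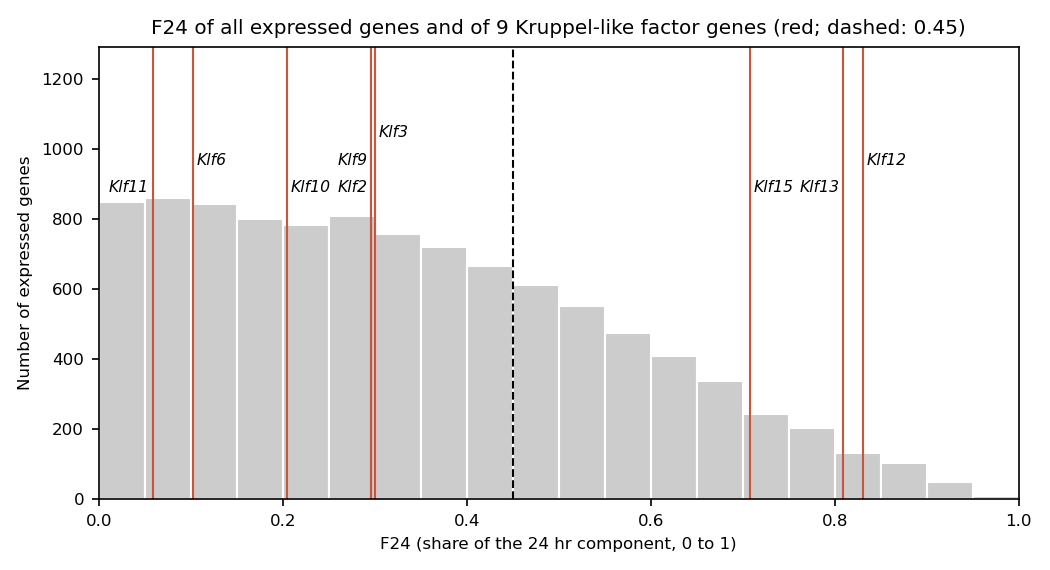
Number of expressed genes (vertical axis) by F24 (horizontal axis, 0 to 1) in grey, with the F24 of the 9 expressed Kruppel-like factor genes as red lines and the minimum of 0.45 as a dashed line. *Klf15*, *Klf13* and *Klf12* lie at 0.708, 0.809 and 0.831, and the other 6 genes at 0.300 or below.

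The rest of the family was mostly not expressed. Of 16 further KLF and SP genes, 12 were found by symbol and 2 were above the minimum, *Sp1* and *Sp3*, which encode ubiquitous transcription factors. *Sp3* had a mean of 36.9 ± 4.73 rpbp (SD, n = 12) with an F24 of 0.377 (permutation p = 0.119, limma adjusted p = 0.108), and *Sp1* of 23.2 ± 2.80 rpbp with an F24 of 0.338 (permutation p = 0.168, limma adjusted p = 0.266). Neither passed a test. *Sp4*, the next in level, had a mean of 5.44 ± 0.7499 rpbp. *Sp3* was thus above *Klf12* in mean signal and below *Klf9*.

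Of 14 cofactors and ubiquitin ligases known to bind Kruppel-like factors, 13 were found and 11 were expressed, and 1 passed both tests, as did 1019 of the 10198 expressed genes. It was *Wwp1*, which encodes a HECT ubiquitin ligase. In series 1 *Wwp1* was 52.6 rpbp at ZT2, 68.7 at ZT6, 71.5 at ZT10, 77.8 at ZT14, 70.8 at ZT18 and 65.1 at ZT22. In series 2 it was 52.2, 67.0, 82.9, 72.2, 68.1 and 61.4 rpbp. Its F24 was 0.773 (permutation p = 0.0002, adjusted p = 0.0167), its phase 12.7 hr, its amplitude 1.59 and its limma adjusted p 0.0348. *Ctbp1*, the corepressor bound by *Klf3* and *Klf12* proteins, had a mean of 42.9 ± 3.29 rpbp (SD, n = 12) with an F24 of 0.394 (permutation p = 0.113), and the histone deacetylase *Hdac3* of 39.1 ± 5.79 rpbp with an F24 of 0.430 (permutation p = 0.0832). *Ncor1*, which was looked up after its values were seen, had an F24 of 0.657 (permutation p = 0.0149, adjusted p = 0.104). Its phase was 21.7 hr, and it was not called rhythmic because its amplitude was 1.31.

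Of 10 immediate early genes, which share a fast response to signals with several Kruppel-like factors, 7 were expressed. *Btg2*, an antiproliferative gene, was rhythmic with an F24 of 0.656 (permutation p = 0.0089, adjusted p = 0.0816) and a phase of 11.7 hr, and the limma adjusted p was 0.115. *Junb*, a subunit of AP-1, was called by limma (adjusted p = 0.0499), with 40.5 and 49.8 rpbp at ZT6 and between 9.36 and 28.9 rpbp at the other times. *Zfp36*, which encodes an mRNA decay factor, had its highest values at ZT6 (165 and 161 rpbp) like *Klf10*, with a limma adjusted p of 0.0840. *Dusp1*, a MAP kinase phosphatase induced by glucocorticoids like *Klf9*, was highest at ZT18 (152 and 174 rpbp), and its limma adjusted p was 0.256.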

How the data were processed

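Poly(A) RNA-Seq of mouse liver was analysed in 12 samples. The authors made TruSeq libraries, processed the reads of 101 nt with CASAVA 1.8, mapped them to mm9 with TopHat, kept unique ones and took their coverage over all exons of a gene without regard to strand. The deposited signal is this coverage per base pair of exon, which the authors set to a depth of 10000000 unique sequences. Not used were the deposited F24, a share of variance that the authors computed by Fourier analysis, and the phase and permutation p-value beside it. Nascent-Seq was not analysed here, and some results that were computed are not reported here. The last time point, named ZT20 in the deposited columns, was taken as ZT22, as in the sample titles.

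The signal was multiplied by 4. F24 came from Fourier analysis of the 12 values, and its p from 10000 random orders (seed 1). Pearson r used log2(rpbp + 1). A limma F-test on log2(rpbp + 1) compared the time points. Both tests ran on all 10198 expressed genes, with Benjamini-Hochberg adjustment, and were tested on simulated data. All 10 genes are named, with the 2 most similar courses for each rhythmic one (mean of at least 8 rpbp, no value of 0), and, of the lists of other KLF and SP genes, cofactors and immediate early genes, those called rhythmic and the 3 highest. Of stellate cell markers, 3 of 5 were expressed and 0 were rhythmic or called by limma. The genes, lists and tests were chosen with earlier results of these data known. Promoters are from RefSeq (GRCm38.p6) and were placed by exact match in mm9, 9 of 9 at 1 place. Gene positions are from GENCODE (mm9). Apart from the intronic *Mir1192* in *Klf9*, no annotated gene overlaps the 10 genes. Alternatives were other minimums, size factors, log scales, adjusted p-values, a cosine in limma, time-point means, a replicate block, and series or samples left out. All limma fits used limma 3.58.1 in R 4.3.3, and all else was run with numpy 2.4.6, pandas 2.3.3 and matplotlib 3.10.9 in Python 3.11.15.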

Additional observations from a re-analysis of the deposited data

How the results depend on the processing

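*Klf12*, *Klf13* and *Klf15* were the 3 rhythmic genes without a minimum, with size factors, on both log scales, with a 24 hr cosine in limma, with amplitudes from time-point means and when each of the 12 samples was left out. With a minimum of 16 rpbp *Klf13* was not tested. *Klf15* did not pass with adjusted permutation p-values (adjusted p = 0.0802). Over the series and samples left out, the number of rhythmic Kruppel-like factor genes was 1 to 3, and that of strongly rhythmic ones 1 to 2. Series 1 alone called *Klf13* and series 2 alone called *Klf6*, and 6 values allow an exact permutation p of 0.0167 at the least. There was 1 strongly rhythmic gene with a minimum of 16 rpbp (*Klf12*), with amplitudes from time-point means (*Klf13*), and without the series 2 sample of ZT10 or of ZT22 (*Klf13*). With size factors *Klf15* joined them.

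Among all genes, 491 were rhythmic with adjusted permutation p-values and 828 with the cosine in limma. Leaving out a series or a sample gave 286 to 2012, the lowest from series 1 alone, and single samples gave 1603 to 2012. The limma test between time points called 724 to 1676 genes when a sample was left out. It called 724 and 757 without the series 1 and the series 2 sample of ZT2, 866 and 888 without those of ZT6, and 1191 without the series 2 sample of ZT14. Of the Kruppel-like factor genes it then called 2 to 5. It called 2 without either sample of ZT2 or the series 1 sample of ZT6, and 3 without the series 2 sample of ZT6. *Klf9* and *Klf13* were called in all 12 cases. Without a minimum it called 3 (*Klf9*, *Klf13* and *Klf15*). The cause was not tested, other than that fewer samples or more genes were used.

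The series numbers were not used to pair the samples in the main tests. The correlations of the deviations of the series over 15 pairs of time points were -0.153 to 0.206 and 2 were above 0.1. These values do not show that the series are alike in every gene. The summed signal of the 10 immediate early genes was higher in series 2 at each time point, from 223 and 226 rpbp in series 1 and 2 at ZT22 to 304 and 436 rpbp at ZT18. With the replicate block, 1779 genes and the same 3 Kruppel-like factor genes were rhythmic, 2 of them strongly, and limma called 1395 genes and the same 5 Kruppel-like factor genes. The signal is not a count and no counting error was computed from it, so that *Klf4* and other genes near 1 rpbp are given as values with no reading of a change.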

Other observations

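Below the minimum of 8 rpbp, *Klf1* and *Klf16* shared a highest time point with *Klf10*. These genes were chosen after their values were seen. *Klf1*, the factor of red blood cell maturation, was 7.96 rpbp in series 1 and 7.88 rpbp in series 2 at ZT6, and between 0.840 and 4.04 rpbp at the other times. In the limma test without a minimum, its adjusted p was 0.0226 over 20042 genes, and 1216 genes were called. The red blood cell marker *Hbb-b1* was 121 and 135 rpbp at ZT6 and between 63.3 and 598 rpbp at the other times. *Klf16* was 6.72 and 7.96 rpbp at ZT6 and between 2.56 and 5.24 rpbp at the other times, with an adjusted p of 0.202. *Klf7* had a mean of 2.62 ± 0.897 rpbp (SD, n = 12), and *Klf5* and *Klf8* did not exceed 0.120 rpbp in any sample.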
